A study of Oryctolagus cuniculus with 4 samples.

Results

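T and NK lymphocytes of the rabbit bladder mucosa are described here, the cells that carry antigen-specific and innate killing and the cytokine signals of the lymphoid system. The cells were chosen by measured UMI counts (unique molecular identifiers, each 1 counted RNA molecule). A cell had to show at least 2 of the 4 genes ZAP70, CD2, TNFRSF25 and SKAP1, with no UMI of the macrophage receptor gene CSF1R or the B cell gene MS4A1, and with DCN and LUM, which mark fibroblasts, together under 0.5% of its UMIs. In all, 888 of 21945 kept cells met the rule, where a kept cell has 500 UMIs or more from 200 genes or more and no more than 15% of them from 13 mitochondrial genes. The cells were further separated by detection of GZMH, a granzyme gene of cytotoxic granules, into 189 GZMH-positive and 699 GZMH-negative cells.

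The libraries came from 4 New Zealand rabbits, 1 library per rabbit. The 2 injured rabbits were sampled at day 10 after focal resection of the bladder mucosa, when new urothelium had just closed over the wound, and the 2 normal rabbits under homeostasis. Mucosa was cut out and digested with collagenase, so lamina propria cells came with the urothelium that the tissue label names. Cells were captured in droplets without a sort, and each rabbit is a separate animal, so the rabbit was the replicate.

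T cells recognise antigen through a receptor whose signal passes the kinase ZAP70 and the adaptors LAT and SKAP1, while NK cells use germline receptors such as the KLRD1 and KLRK1 products. Cytotoxic members of both kinds store perforin and granzymes in granules, regulatory T cells carry FOXP3 and CTLA4, and innate-like lymphocytes of barrier tissue respond to alarmins through IL1RL1 or make IL22. In mucosa many of these cells are resident, held by CD69 and guided by chemokine receptors such as CXCR6.

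Genes outside the rule matched the label. PTPRC, the CD45 antigen of leukocytes, reached 1098, 942, 1100 and 708 CPM (UMIs per 1000000 UMIs of the same cells) in the T and NK lymphocytes of injured rabbits 1 and 2 and normal rabbits 1 and 2, and between 87.3% and 93.2% of the cells held a PTPRC UMI. In fibroblasts of the same libraries, taken as cells with DCN and LUM at or over 0.5% of UMIs and under 2 of the 4 markers, that share lay between 0.380% and 2.66%. The T cell surface gene CD6 was at 374 CPM, 174 CPM, 64.1 CPM and 124 CPM. CXCR6, a chemokine receptor of resident lymphocytes, was at 380 CPM, 251 CPM, 464 CPM and 190 CPM. It was named with the rule as a marker of these cells, so its level is a description and no check of the label. Of 12 macrophage and monocyte markers with a symbol, 2, 5, 8 and 6 were at 0 in the lymphocytes of the 4 rabbits. CSF1R is among the 12 and was fixed at 0 by the rule. Of 7 mast cell markers 1, 1, 5 and 3 were at 0. CD163 and the mast cell gene CPA3 were at 0 in every library, while the monocyte gene CD14 had 28, 4, 3 and 22 UMIs and the mast cell receptor gene MS4A2 had 63, 18, 0 and 1. CD3D, CD3E, CD3G, CD247, LCK, CD4, CD8A, CD8B, NCR1 and KLRB1 were not matched by symbol and not analysed here, so T cells and NK cells were not separated.

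The values just inside and just outside the rule were as follows. Cells with exactly 2 of the 4 genes held PTPRC at 889, 840, 1198 and 671 CPM in the same order of rabbits. Cells just outside, with exactly 1 of the 4 genes and otherwise inside the rule, held PTPRC at 240 CPM, 176 CPM, 148 CPM and 40.4 CPM. CXCR6, a marker named with the rule, was at 289, 345, 424 and 124 CPM just inside and at 39.2, 36.7, 17.7 and 4.04 CPM just outside. Kept cells with a GZMH UMI numbered 252, 40, 4 and 6, and 62.3%, 65%, 50% and 66.7% of them lay inside the rule.

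Lymphocytes took a larger share of the injured libraries. They were 498 of 6081 kept cells in injured rabbit 1, which is 8.19% (95% Wilson interval 7.53% to 8.91%), and 246 of 5529 in injured rabbit 2, which is 4.45% (3.94% to 5.03%). In normal rabbit 1 they were 55 of 4308 cells, or 1.28% (0.982% to 1.66%), and in normal rabbit 2 they were 89 of 6027, or 1.48% (1.20% to 1.81%). Both injured rabbits lay above both normal rabbits. The difference of the group means was 4.94 percentage points, or 3.07 without injured rabbit 1 and 6.81 without injured rabbit 2. The two-sided exact permutation test gave p = 0.333, which is the smallest that 2 rabbits against 2 allow. These intervals cover counting error only, and the injured rabbits differed from each other by more than their counting intervals. With every cell thinned to 1000 UMIs the shares were 3.22%, 1.5%, 0.417% and 0.458%, leaving out 226, 129, 115 and 141 shallower kept cells, of which 3 were lymphocytes of injured rabbit 1.

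Cells with a CSF1R UMI were also more frequent in the injured libraries. Those with a CSF1R UMI and under 2 of the 4 lymphocyte genes were 8.96%, 6.75%, 1.04% and 2.39% of kept cells in the same order. This set is mixed, as it has no limit on DCN and LUM. Fibroblast markers summed to 11380, 22684, 2565 and 48191 CPM in it. Macrophage and monocyte markers, CSF1R included, summed to 9406, 7114, 9924 and 6653 CPM. Median depth per lymphocyte was 4029, 3688.5, 3363 and 4336 UMIs. No lymphocyte barcode was shared between libraries.

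**Figure D1:**
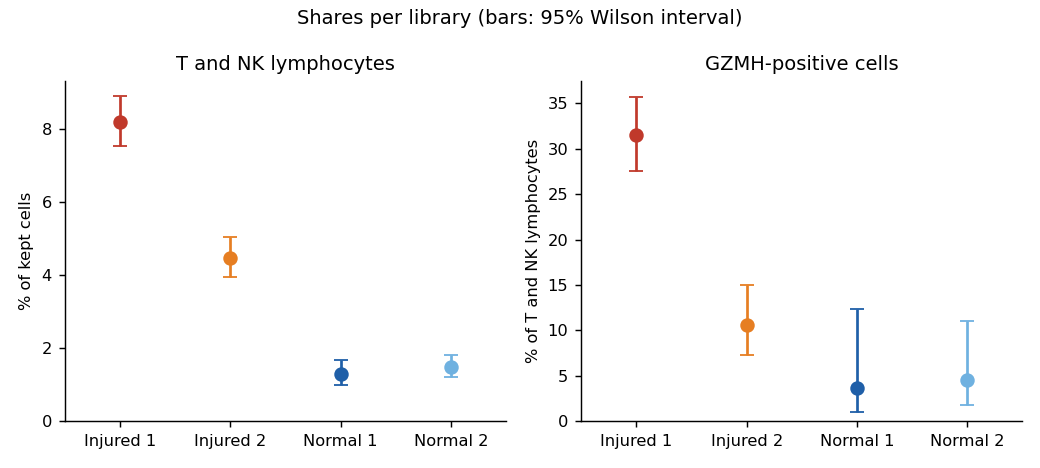
Share of T and NK lymphocytes among kept cells (left, %) and of GZMH-positive cells among T and NK lymphocytes (right, %) in each of the 4 libraries, with 95% Wilson intervals as bars. Injured rabbit 1 was highest in both, at 8.19% and 31.5%, and the normal rabbits were lowest.

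GZMH-positive cells were common in 1 injured rabbit and rare in the normal ones. They were 157 of 498 lymphocytes in injured rabbit 1, or 31.5% (27.6% to 35.7%), and 26 of 246 in injured rabbit 2, or 10.6% (7.32% to 15%). Normal rabbit 1 had 2 of 55, or 3.64% (1.00% to 12.3%), and normal rabbit 2 had 4 of 89, or 4.49% (1.76% to 11%). The 2 injured rabbits differed beyond counting error, and injured rabbit 2 overlapped both normal rabbits in its interval. The difference of the group means was 17 percentage points with a two-sided exact permutation p = 0.333. Without injured rabbit 1 it was 6.50 points, and without injured rabbit 2 it was 27.5 points. Thinned to 1000 UMIs, the shares of GZMH-positive cells were 24.8%, 5.80%, 2.37% and 2.46%. As background, GZMH UMIs were found in 16 of 2143 fibroblasts of injured rabbit 1 (0.747%), whose median depth was 8021 UMIs, and in none of the fibroblasts of the other libraries.

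The remaining cells were sorted by other detected genes into groups that were chosen after their values had been seen and that get no test. Cells with an IL1RL1 UMI and no GZMH UMI numbered 135, 87, 11 and 8, which is 27.1% and 35.4% of T and NK lymphocytes in the injured rabbits and 20% and 8.99% in the normal rabbits. IL1RL1 encodes the ST2 receptor for an alarmin released by damaged barrier cells. Cells with a UMI of IL23R, IL22 or TNFSF11 and none of GZMH or IL1RL1 numbered 16, 16, 11 and 29, or 3.21% and 6.50% in the injured and 20% and 32.6% in the normal rabbits. Cells with a PRF1 UMI and none of the genes above were 9.24% and 8.94% in the injured and 12.7% and 12.4% in the normal rabbits. Thus the group with IL23R, IL22 or TNFSF11 was the larger of the first pair in normal rabbit 2 and the smaller in both injured rabbits.

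**Figure D2:**
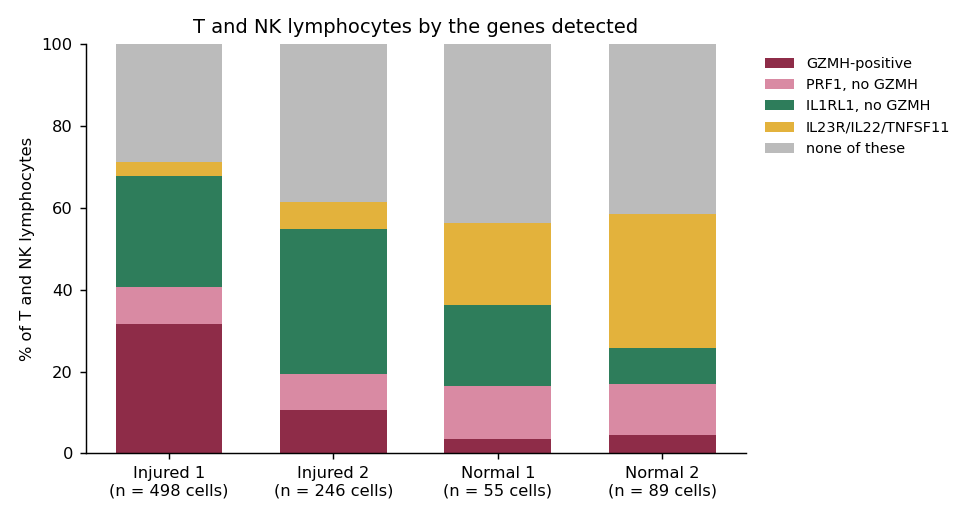
Stacked bars give the percentage of T and NK lymphocytes of each library in 5 exclusive groups by detected genes, with the number of cells under each bar. GZMH-positive and IL1RL1 groups take more of the injured libraries, and the group with IL23R, IL22 or TNFSF11 takes 20% and 32.6% of the normal ones.

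GZMH-positive cells carried a cytotoxic set of genes and less of GATA3 and IL1RL1 than GZMH-negative cells of the same rabbit. Summed counts were compared between the classes with edgeR's quasi-likelihood test, the rabbit as a block and Benjamini-Hochberg adjustment at 0.05. Of 2526 genes tested, 17 were called higher, GZMH of the rule among them, and 27 lower, which is 0.673% and 1.07% of all genes tested. Of those called, 30 carry a symbol. Both normal rabbits together gave only 6 GZMH-positive cells, with 5758 UMIs in normal rabbit 1 and 30570 in normal rabbit 2, so a single UMI in the former equals about 174 CPM. Median depths of the classes were 3944 against 4042 and 3668.5 against 3713 UMIs in the injured rabbits, and 2879 against 3410 and 8453 against 4307 UMIs in the normal rabbits. Markers of other cell types differed too. In the injured rabbits mast cell markers summed to 161 and 1323 CPM in GZMH-positive against 65.6 and 89.2 CPM in GZMH-negative cells. Single GZMH-positive cells held much of this, with 50 of 50 FCER1A and 42 of 46 MS4A2 UMIs in injured rabbit 1. In injured rabbit 2 they held 80 of 80 HDC and 70 of 70 FCER1A UMIs. Neutrophil markers summed to 908 and 1893 against 118 and 898 CPM, and endothelial markers to 303 and 631 against 270 and 91.4 CPM. Of the IL1B UMIs of GZMH-positive cells, 737 of 795 and 220 of 244 came from 1 cell each. In injured rabbit 2, 56 of 57 VWF UMIs of these cells came from 1 cell. Fibroblast, epithelial and smooth muscle markers were lower in GZMH-positive cells of both, with fibroblast markers at 587 and 456 against 655 and 1324 CPM.

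PRF1, which encodes the pore-forming perforin, rose from 74.1 to 448 CPM in injured rabbit 1 and from 39.4 to 456 CPM in injured rabbit 2. In normal rabbit 1 it was at 117 CPM in GZMH-negative and 174 CPM in GZMH-positive cells, and in normal rabbit 2 at 54.4 and 327 CPM. It was higher in GZMH-positive cells in 4 of 4 rabbits (log2 fold change 2.60, SE 0.36, edgeR adjusted p = 3.35e-10). PRF1 was detected in 70.7% and 73.1% of GZMH-positive cells of the injured rabbits and in 17.6% and 15% of their GZMH-negative cells. FASLG, the death ligand of killer lymphocytes, went from 25.6 to 80.8 CPM and from 14.1 to 129 CPM in the injured rabbits, from 40.6 to 347 CPM (2 UMIs) in normal rabbit 1 and from 7.10 to 32.7 CPM (1 UMI) in normal rabbit 2, a log2 fold change of 2.19 (SE 0.39). Of the cytotoxic granule list, 3 members besides GZMH could be tested. PRF1 and FASLG, 2 of the 3, were called higher and 0 lower, beside 0.673% and 1.07% of all genes tested. The third, SRGN, the granule proteoglycan, did not pass (-0.68, SE 0.34).

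Further genes known from killer cells were too sparse for the test and are given by their levels in the injured rabbits, with no test. LAG3, an inhibitory receptor of activated lymphocytes, was at 157 and 68.4 CPM in GZMH-positive cells and at 9.59 and 4.46 CPM in GZMH-negative cells. GZMK, another granzyme, was at 99.7 and 30.4 CPM against 16.0 and 1.49 CPM. KLRD1, the CD94 chain of NK receptors, was at 64.0 and 68.4 CPM against 19.2 and 5.95 CPM, and KLRK1, the NKG2D receptor, at 27.3 and 76.0 CPM against 6.40 and 9.67 CPM. IFNG was at 122 and 15.2 CPM against 35.7 and 3.72 CPM, with 116 of the 183 IFNG UMIs of injured rabbit 1 in its GZMH-positive cells. TBX21, a driver of the interferon gamma programme, was at 46.2 and 45.6 CPM against 21.9 and 14.1 CPM. EOMES was at 27.3 CPM against 4.26 CPM in injured rabbit 1, whereas injured rabbit 2 had 0 UMIs of it in GZMH-positive cells.

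The T cell gene CD6 was detected in 122 of 157 and 13 of 26 GZMH-positive cells of the injured rabbits. Its level rose from 286 to 548 CPM in injured rabbit 1 and from 166 to 258 CPM in injured rabbit 2. In normal rabbit 2 it rose from 78.1 to 752 CPM, where 19 of its 23 UMIs in GZMH-positive cells came from 1 cell. In normal rabbit 1 it went from 66.0 CPM in GZMH-negative cells to 0 UMIs in GZMH-positive cells. The log2 fold change of CD6 was 1.24 (SE 0.34, edgeR adjusted p = 0.0199), higher in 3 of 4 rabbits. CD6 without KLRD1 or FCER1G was detected in 90 of 157 GZMH-positive cells of injured rabbit 1 and 8 of 26 of injured rabbit 2. KLRD1 or FCER1G, an adaptor of NK receptors, without CD6 was found in 11 and 7 of them, both kinds in 32 and 5, and neither in 24 and 6. In the same order, GZMH-negative cells gave 172, 28, 16 and 125 of 341 in injured rabbit 1. In injured rabbit 2 they gave 76, 15, 7 and 122 of 220. Of the T cell receptor signalling list 8 members were tested and CD6 was the only one called, beside 0.673% of all genes called higher and 1.07% lower, and the median log2 fold change was 0.64 beside -0.08 over all genes tested. PTPRC did not differ past the threshold, with a log2 fold change of 0.21 (SE 0.28).

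The genes that were lower in GZMH-positive cells included GATA3 and IL1RL1. GATA3, a factor of type-2 and regulatory lymphocytes, was at 157, 228, 521 and 65.4 CPM in GZMH-positive cells of the 4 rabbits and at 873, 783, 812 and 405 CPM in GZMH-negative cells, lower in 4 of 4 (log2 fold change -2.17, SE 0.36). IL1RL1 was at 179 and 760 CPM against 1339 and 964 CPM in the injured rabbits and had 0 UMIs in the GZMH-positive cells of the normal rabbits against 381 and 260 CPM (log2 fold change -2.01, SE 0.39). In injured rabbit 2 all 100 IL1RL1 UMIs of the GZMH-positive cells came from 4 of 26 cells. LTB, which encodes lymphotoxin beta, was lower in 4 of 4 rabbits. It went from 490 to 367 and from 549 to 403 CPM in the injured rabbits. In the normal rabbits it went from 701 to 174 and from 876 to 32.7 CPM, with 1 UMI in the GZMH-positive cells of each. Its interaction with injury was called (3.83).

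**Figure D3:**
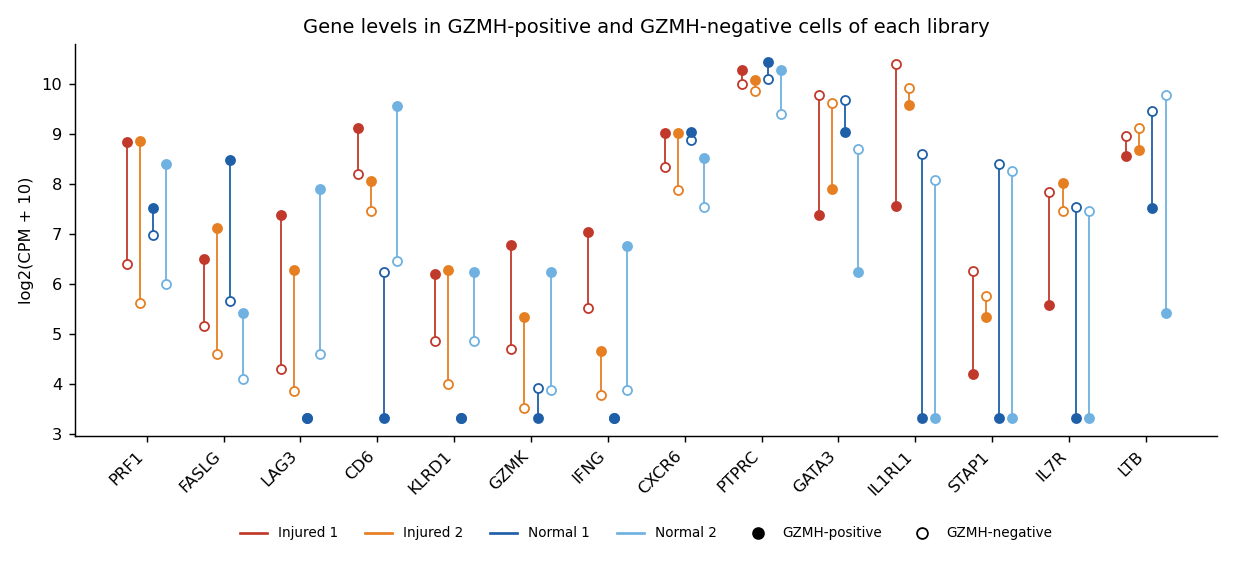
Levels of 14 genes on a log2(CPM + 10) scale in GZMH-positive (filled) and GZMH-negative (open) cells of each library, joined by a line per library. PRF1 and FASLG are higher and GATA3, IL1RL1, STAP1 and LTB are lower in the GZMH-positive cells of all 4 rabbits, while the normal points rest on 2 and 4 GZMH-positive cells.

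STAP1, an adaptor of lymphocyte kinases (log2 fold change -2.72, SE 0.53), was also lower in 4 of 4 rabbits. So were the small heat shock gene CRYAB (-2.62, SE 0.51), GPA1 (-2.19, SE 0.40) and the survival gene BIRC3 (-1.82, SE 0.47). The same held for the water channel gene AQP3 (-1.82, SE 0.45), NRIP1 (-1.74, SE 0.50) and ARHGAP18 (-1.69, SE 0.48). All but CRYAB had 0 UMIs in the GZMH-positive cells of both normal rabbits, and CRYAB in those of normal rabbit 1. In GZMH-negative cells of normal rabbit 1 these genes other than STAP1 were at 15.2 to 162 CPM, below the 174 CPM of 1 UMI. A 0 in its GZMH-positive cells therefore shows no fall for them. FBXW7, a ubiquitin ligase subunit (1.67, SE 0.40), rose in 4 of 4. FABP5, a fatty acid binding protein, rose in 4 of 4 as well (1.25, SE 0.26), from 2400 to 2979 and from 1882 to 2189 CPM in the injured rabbits and from 1046 to 9205 and from 369 to 2421 CPM in the 2 and 4 GZMH-positive cells of the normal rabbits. Its interaction with injury was called (-2.16), its log2 fold change ranged from 0.22 to 1.78 over 16 other settings, and it passed the threshold in 6 of them. CRTAM is a surface receptor of cytotoxic cells, named here after its values were seen. Among called genes with a symbol it had the largest increase past GZMH (2.97, SE 0.41), which rested on few cells. It was at 168 against 20.3 CPM in injured rabbit 1 but 15.2 against 11.9 CPM in injured rabbit 2. In normal rabbit 2 it was at 1407 against 47.3 CPM and in normal rabbit 1 at 0 against 50.8 CPM. Across 16 other settings PRF1 stayed past the threshold in all 16, GATA3 in 14, IL1RL1 in 10, CD6 in 6 and LTB in 4. Without injured rabbit 1, which held 157 of the 189 GZMH-positive cells, 13 genes besides GZMH were called in place of 43. Of 29 called genes followed across settings, 18 could be tested in that fit and 7 of them stayed past the threshold. In the injured rabbits alone 10 genes were called, and of the same 29 genes, all tested there, 2 stayed past the threshold, PRF1 and GATA3. The other 27 kept their direction.

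The IL1RL1 group of GZMH-negative cells held 74 of the 86 FOXP3 UMIs of injured rabbit 1 and 45 of the 60 of injured rabbit 2. Every value in the account of these groups is a description, since IL1RL1 chose the cells. GATA3 was at 1604, 1220, 2904 and 2994 CPM in the IL1RL1 cells of the 4 rabbits and at 233, 229.6, 217 and 152 CPM in GZMH-negative cells without any of the sorting genes. FOXP3, the defining factor of regulatory T cells, was at 82.4 and 60.2 CPM in the IL1RL1 cells of the injured rabbits and at 7.31 and 10.4 CPM in the cells without sorting genes. It was detected in 49 of 135 and 24 of 87 of the former and in 3 of 144 and 4 of 95 of the latter. CTLA4, an inhibitory receptor of regulatory and activated T cells, was at 149 and 85.6 CPM against 36.6 and 60.0 CPM. Median depth was 4795 and 4649 UMIs in the IL1RL1 cells against 3116 and 3257 UMIs, and with cells thinned to 1000 UMIs FOXP3 was in 7.37% and 5.46% against 0.419% and 0.785%. KLRD1, GZMK and IFNG had UMIs in 0 of 135 and 0 of 87 IL1RL1 cells, which allows shares of cells with a UMI of up to 2.22% and 3.45% and sets no limit on cells that express these genes.

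The IL1RL1 cells of the normal rabbits number only 11 and 8. They held FOXP3 in 1 cell each, and CTLA4 in 1 of 11 and 0 of 8. CD69 was at 2704 and 1791 CPM in them against 589 and 692 CPM in the IL1RL1 cells of the injured rabbits. The cytokine genes IL5 and CSF2 had 0 UMIs in the T and NK lymphocytes of every library, IL13 had 1 UMI in all and IL17A 1 UMI in all.

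KRT17, a keratin gene of basal epithelium, was found in the IL1RL1 cells of the injured rabbits. It was at 363 and 376 CPM there, in 67 of 135 (49.6%) and 29 of 87 (33.3%) cells, and at 17.5 and 31.3 CPM in cells without sorting genes, in 9 of 144 (6.25%) and 7 of 95 (7.37%). With cells thinned to 1000 UMIs the shares were 21.7% and 14.3% against 1.91% and 2.73%. In the normal rabbits KRT17 was detected in 2 of 11 and 1 of 8 IL1RL1 cells and in 0 of 24 and 0 of 37 cells without sorting genes. Fibroblasts held KRT17 in 11 of 2143 and 6 of 2476 cells and CSF1R cells in 6 of 545 and 0 of 373. KRT15, another keratin gene of basal epithelium, was at 391 and 118 CPM in the IL1RL1 cells and at 319 and 647 CPM in the cells without sorting genes, where 161 of 218 and 231 of 248 UMIs came from 1 cell each. It was detected in 45 of 135 and 30 of 87 of the former and in 48 of 144 and 17 of 95 of the latter, in 587 of 2143 and 380 of 2476 fibroblasts and in 151 of 545 and 45 of 373 CSF1R cells. KRT5, the basal keratin gene that marks urothelial stem and progenitor cells, was detected in 2 of 135 and 0 of 87 IL1RL1 cells, and KRT7 in 4 and 1 of them.

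Cells with IL23R, IL22 or TNFSF11 form a further small group, of 16, 16, 11 and 29 cells. They carried the prostaglandin receptor gene PTGER2 at 74.8, 39.7, 282 and 320.5 CPM and the adaptor gene FCER1G at 59.8, 52.9, 132 and 212 CPM, against 36.6, 5.22, 27.2 and 89.3 CPM and 11.7, 15.7, 54.3 and 110.3 CPM in cells without sorting genes. KIT, the receptor of stem cell factor, was at 89.7, 106, 113 and 145 CPM. CXCR6 was at 688, 344, 621 and 206 CPM. IL22, a cytokine that acts on epithelium, had 348 UMIs in 22 cells of normal rabbit 2, 52 UMIs in injured rabbit 1 with 49 of them in 1 cell, 1 UMI in injured rabbit 2 and 0 in normal rabbit 1, so its level in the normal group rests on 1 rabbit.

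**Figure D4:**
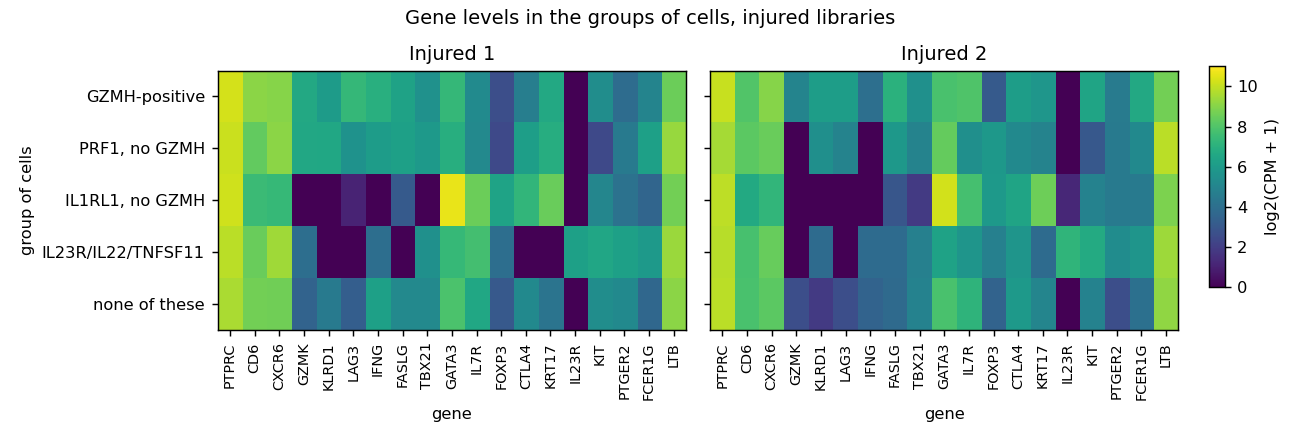
Levels of 19 genes (columns) as log2(CPM + 1), from dark for 0 to yellow for high, in 5 exclusive groups of T and NK lymphocytes (rows) of the 2 injured rabbits. GATA3, FOXP3 and KRT17 are highest in the IL1RL1 row and KLRD1 and IFNG are at 0 there, while IL23R and TNFSF11 helped to choose the fourth row.

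In all T and NK lymphocytes no gene passed the threshold between injured and normal rabbits. Of 4516 genes tested by edgeR on summed counts, 0 were called (0%), 721 had an unadjusted p under 0.05, and DESeq2 called 69. In GZMH-negative cells alone 0 of 4368 were called (0%), 725 had an unadjusted p under 0.05, and DESeq2 called 66; the rabbits did not overlap for 30.9% with injured higher and 19.8% with injured lower. The injured and normal rabbits did not overlap in CPM for 31.7% of the genes tested with injured higher and for 18.8% with injured lower in all T and NK lymphocytes. With 1 rabbit left out, 130 genes were called without normal rabbit 1, 84 without injured rabbit 2, 4 without normal rabbit 2 and 0 without injured rabbit 1. Each of these fits sets 1 rabbit against 2, so the spread comes from the remaining pair alone and the lone rabbit is assumed to vary like it. The same comparison within GZMH-positive cells was not run, as the normal rabbits gave 2 and 4 such cells. The interaction of GZMH detection with injury, which rests on the same 6 cells, called 17 genes higher (0.673% of 2526) and 5 lower (0.198%). A level over all lymphocytes moves both with the mix of lymphocyte groups and with RNA per cell, and the summed counts cannot tell these apart.

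Of 13 listed genes of regulatory T cells 7 carry a symbol and were tested, and 6 of these were higher in both injured rabbits, short of the threshold. CTLA4 had 199 and 105 UMIs in 103 and 52 lymphocytes of the injured rabbits and 2 UMIs and 1 UMI in 1 lymphocyte each of the normal rabbits, or 70.3, 71.1, 9.87 and 2.21 CPM. The ratio of the pooled CTLA4 rates was 15.4 with an exact 95% counting interval of 5.23 to 75.3. FOXP3 had 86, 60, 1 and 1 UMIs, with a ratio of 11.1 (3.02 to 92.7), and the inhibitory receptor gene TIGIT had 51, 37, 1 and 1 UMIs, with a ratio of 6.70 (1.80 to 56.2). These intervals ignore the spread between rabbits and treat UMIs of the same cell as independent, so they are too narrow. For CTLA4 edgeR gave adjusted p = 0.138. Those 6 of 7 members stand beside 31.7% of all genes higher without overlap, 0 were lower beside 18.8%, and the median log2 difference was 1.04 beside 0.03 over all genes. IL1RL1 itself was at 948, 945, 370 and 243 CPM (log2 fold change 1.58, SE 0.28, edgeR adjusted p = 0.140) and KRT17 at 162, 207, 49.3 and 17.7 CPM (2.58, SE 0.45).

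Cell cycle genes were higher in both injured rabbits as well, short of the threshold. Of 15 tested members, 14 were higher in both injured rabbits than in both normal ones and 0 were lower, beside 31.7% and 18.8% of all genes. None was called, and the median log2 difference was 1.75 beside 0.03 over all genes. MCM5, a helicase subunit of DNA replication, was at 148, 169, 14.8 and 35.3 CPM (log2 fold change 2.42, SE 0.39, edgeR adjusted p = 0.140). CDK1, the kinase that starts mitosis, was at 89.1, 94.1, 4.93 and 28.7 CPM. BUB1, of the spindle checkpoint, was at 42.4, 55.5, 0 and 6.62 CPM. In CSF1R cells MCM5 was at 6.87, 8.50, 4.42 and 14.7 CPM and CDK1 at 4.89, 5.67, 4.42 and 4.91 CPM, so normal rabbit 2 was highest for MCM5 and the rabbits lay close together for CDK1. In fibroblasts MCM5 was at 7.80, 7.08, 0.990 and 14.6 CPM, whereas CDK1, at 8.70, 9.63, 3.37 and 7.23 CPM, was higher in both injured rabbits there too. Between the classes, 11 cell cycle genes were tested and 0 were called, beside 0.673% of all genes higher and 1.07% lower. Of the 11, 4 were higher and 0 lower at an unadjusted p under 0.05, beside 74 and 136 of 2519 genes outside the rule. The median log2 fold change was 0.57 beside -0.08 over all genes. In the interaction with injury 0 of the 11 were higher and 5 lower at an unadjusted p under 0.05, beside 179 and 34 of 2519. The class difference thus leans on the few GZMH-positive cells of the normal rabbits. In normal rabbit 2, 21 of their 28 UMIs of the listed gene PCNA came from 1 cell.

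Other genes were lower in both injured rabbits, of which STAP1 and PTGER2, like KRT17 above, are named after their values were seen. STAP1 was at 47.4, 43.3, 321 and 278 CPM (log2 fold change -2.78, SE 0.24, edgeR adjusted p = 0.0769), and this was the lowest adjusted p of the comparison. PTGER2 was at 22.3, 18.3, 98.7 and 161 CPM, and FCER1G at 24.0, 29.8, 69.1 and 137 CPM (log2 fold change -2.10, SE 0.40). IL23R, a cytokine receptor subunit, was at 1.77, 8.13, 39.5 and 30.9 CPM from 5, 12, 8 and 14 UMIs, and TNFSF11, a ligand of the tumour necrosis factor family, at 7.78, 14.9, 64.1 and 48.5 CPM. CD69, which retains lymphocytes in tissue, was at 430.5, 566, 937 and 896 CPM (log2 fold change -0.94), while CXCR6 differed by -0.09. Of 5 tested residence genes, 1 was higher and 2 were lower without overlap, beside 31.7% and 18.8% of all genes. The median mitochondrial share of the lymphocytes was 7.22% and 7.11% in the injured and 7.92% and 10.2% in the normal rabbits. The mitochondrial gene ATP8, named after its values were seen, was at 59.4, 48.8, 237 and 185 CPM (log2 fold change -2.02, SE 0.24, edgeR adjusted p = 0.131). The part of cell quality in these differences was not tested. Among 14 stress and immediate early genes, which respond to tissue digestion, 2 were higher and 6 lower without overlap, and among 14 interferon genes 2 and 0, beside the same shares of all genes.

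**Figure D5:**
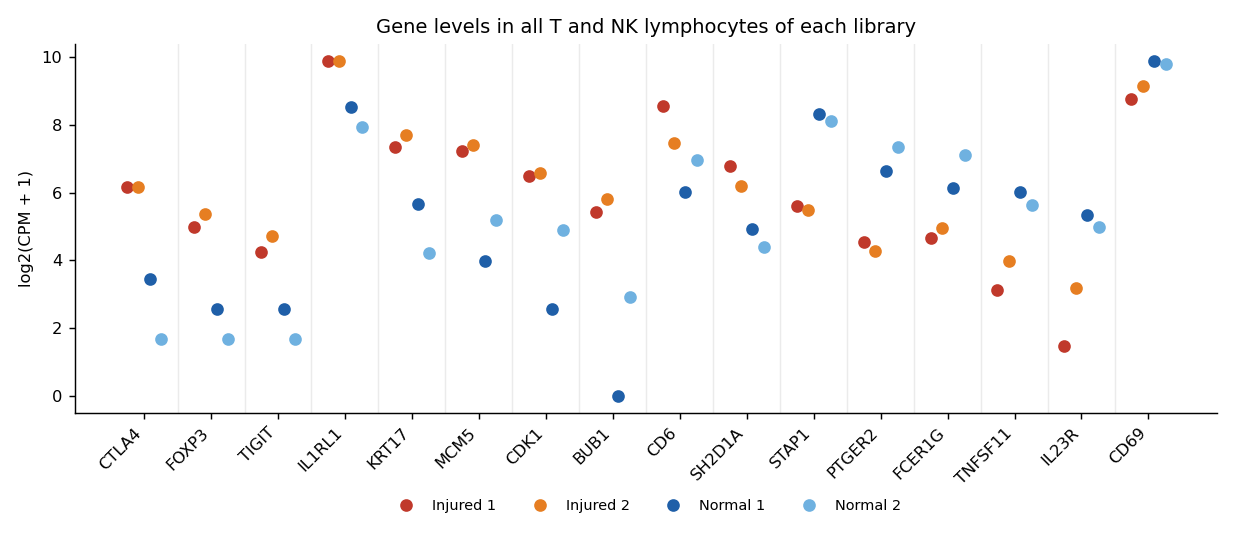
Levels of 16 genes on a log2(CPM + 1) scale in all T and NK lymphocytes of each library, with 1 point per rabbit. For CTLA4 to BUB1 and SH2D1A the injured points lie above the normal points, for STAP1 to CD69 below, with none of them past the threshold.

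Markers of other cell types were present in the lymphocytes. Of 4 tested fibroblast genes besides DCN and LUM, 4 were higher in both injured rabbits, beside 31.7% of all genes, and the summed level of 7 fibroblast markers, DCN and LUM included, was 632 and 1247 CPM in the injured and 143 and 472 CPM in the normal rabbits. The summed level of 10 epithelial markers was 546 and 504 CPM against 252 and 64.0 CPM. Most of it was KRT15, at 273, 236, 138 and 35.3 CPM, and KRT17, at 162, 207, 49.3 and 17.7 CPM. The summed level of 9 endothelial markers was 281 and 140 CPM against 400 and 421 CPM. The 12 macrophage markers summed to 113, 167, 98.7 and 135 CPM, against 6653 to 9924 CPM in CSF1R cells. CSF1R is among the 12 and chose both sets of cells, so part of this gap was fixed beforehand. CD163 was at 0 in the lymphocytes of all libraries. Mast cell markers summed to 97.5, 199, 74.0 and 83.9 CPM, with CPA3 at 0. The 4 neutrophil markers, IL1B among them, summed to 385, 987, 69.1 and 2388 CPM, and 737 of 964, 694 of 1344 and 1051 of 1065 IL1B UMIs of injured rabbits 1 and 2 and normal rabbit 2 came from 1 cell each. The 10 B and plasma cell markers, with MS4A1 fixed at 0 by the rule, summed to 133, 11.5, 4.93 and 6.62 CPM. The 7 smooth muscle and pericyte markers summed to 234, 142, 54.3 and 181 CPM. Leaving out lymphocytes with at least 2 UMIs of markers of other types gave 38 called genes. The part of these transcripts in the differences between rabbits was not tested.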

How the data were processed

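The deposited files hold UMI counts per gene and cell barcode, which the authors made with Cell Ranger 6.0.1 from 10x libraries of 4 rabbits; the genome release is not given in the sources used here. Filters and the lymphocyte rule were applied to these counts in Python 3.11.15, and 9771 of 18475 features carry a symbol. No doublet caller was run. The members and gene lists were chosen with earlier results of these data known. UMIs were summed per rabbit, and per rabbit and GZMH class, giving 202699 to 2829412 UMIs per rabbit, and genes were tested with edgeR 4.0.16 (filterByExpr, TMM, quasi-likelihood test, Benjamini-Hochberg 0.05). Class comparisons had the rabbit as a block. Shares were compared by exact permutation tests. DESeq2 1.42.0, other filters, scalings and left-out rabbits were alternatives, with 2 added after seeing the data. The edgeR script was tested on simulated data. Genes were named when called and on a list, when among the 10 largest called changes per direction with at least 20 CPM and the same order in every rabbit, when on a list of lymphocyte genes set out with the design, or as examples of a list's range. Genes of the rule are not given as results. Planned shares of CD4 and CD8A cells and the injury comparison within GZMH-positive cells were not run, as no feature matched these symbols and under 10 cells were present. Sequences were not used here. A few genes are not reported here.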

Additional observations from a re-analysis of the deposited data

Results flagged for a closer look

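The difference between injured and normal rabbits itself differed between GZMH-positive and GZMH-negative cells for 22 genes by the interaction term of edgeR. The listed genes among them are IL1B (log2 interaction 6.79), LTB (3.83), JUN (3.55), RGS1 (2.96), CXCL8 (2.76), NFKBIA (2.24) and, in the other direction, the keratin gene KRT17 (-4.29), whose direction turned without normal rabbit 2 (6.94). The interaction rests on 2 and 4 GZMH-positive cells of the normal rabbits, and without normal rabbit 1 no gene was called. In normal rabbit 2, 1051 of the 1061 IL1B UMIs of GZMH-negative cells and 559 of the 563 CXCL8 UMIs came from 1 cell each, and in injured rabbit 1, 737 of the 795 IL1B UMIs of GZMH-positive cells came from 1 cell. The part of these cells in the interaction was not tested beyond leaving out cells with at least 5 UMIs of myeloid or mast genes, which gave 9 called genes.

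Barcodes outside the kept cells also carried the lymphocyte genes. In the injured rabbits 42 and 9 barcodes met the rule but held over 15% mitochondrial UMIs, against 2 in each normal rabbit.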

How the results depend on the processing

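Under the planned and added alternatives, calls between injured and normal rabbits in all T and NK lymphocytes, 0 as reported, numbered 47 with at least 3 of the 4 markers, 38 without cells with markers of other types, 69 with DESeq2 and 365 with no low-count filter, and 0 to 130 when a rabbit was left out. With the replicate number as a block 22 genes were called, and same-numbered rabbits correlated at only 0.0862 in their deviations, so the numbers were not taken as a pairing. In GZMH-negative cells the counts were 48, 24, 66 and 358 in the same order, 57 without cells with at least 5 UMIs of myeloid or mast genes, 0 with the replicate block, and 2 to 307 with a rabbit left out (307 without normal rabbit 1).

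For GZMH-positive against GZMH-negative cells, 43 genes besides GZMH became 3 with at least 3 of the 4 markers, 12 with DESeq2, 111 with no low-count filter, 65 in cells with 2000 to 8000 UMIs, 10 in injured rabbits only and 2 with no replicate block, and 13 to 51 with a rabbit left out. MGP changed sign in cells with 2000 to 8000 UMIs (log2 fold change 0.0194). The interaction count of 22 became 8 at a mitochondrial limit of 10%, 4 without cells with markers of other types, 9 without cells with at least 5 UMIs of myeloid or mast genes, 4 with DESeq2, 5 with at least 2 GZMH UMIs and 0 in cells with 2000 to 8000 UMIs, and 0 to 9 with a rabbit left out. The KRT17 interaction, log2 -4.29, changed sign at the mitochondrial limit of 10% (6.29), in cells with 2000 to 8000 UMIs (5.52) and without normal rabbit 2, and ranged from -6.18 to 6.94 with a rabbit left out, past the threshold in none of these. Why these values moved was not tested. Both shares kept injured above normal in every alternative run, a design that cannot reach 0.05. The normal rabbits held 55 and 89 lymphocytes, which limits every gene at low level.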

Other observations

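Single cells held most of the UMIs of several genes that are foreign to lymphocytes. In injured rabbit 1, 305 of 306 JCHAIN UMIs, of an antibody joining chain, and 251 of 258 UMIs of the chemokine gene CXCL9 came from 1 cell each. In injured rabbit 2, 80 of 105 UMIs of the histamine enzyme gene HDC and 70 of 86 UMIs of FCER1A came from 1 cell each, and in GZMH-positive cells both genes were found in 1 cell only. At least 5 UMIs of myeloid or mast genes were present in 39, 24, 3 and 3 lymphocytes of injured rabbits 1 and 2 and normal rabbits 1 and 2.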
